A study of Mus musculus with 4 samples.

Results

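The CXCR3 and CXCR6 chemokine axes were followed through 5 genes, chosen by name: the ligand genes Cxcl9, Cxcl10 and Cxcl16 and the receptor genes Cxcr3 and Cxcr6. All 5 were found among the 32285 genes of both count matrices. Transcripts were counted as UMIs (unique molecular identifiers, 1 per captured molecule) in single cells from tumours of OV2944-HM1, a mouse ovarian cancer line. Tumours began from 1000000 cells placed under the skin of the right flank of B6C3F1 mice aged 6 to 8 weeks. The control group received vehicle into the tumour, and the IL-27 group received 100 ng of recombinant mouse interleukin 27 per mouse, from the day of implantation and then every other day. Tumours were digested on day 14 and cells were enriched with magnetic beads against CD45, which marks leukocytes. The number of mice per group is not given in the sources used here. For the 4 labelled entries, 2 in each group, the files hold 1 matrix per group, and no file ties a cell to its entry. A group was therefore 1 sample, so no test was possible and no difference between the libraries has a replicate check.

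CXCL9 and CXCL10 are secreted chemokines that interferon gamma induces in myeloid and stromal cells, and both bind CXCR3, a receptor of activated T cells and natural killer (NK) cells. CXCL16 is made as a membrane protein with a chemokine head that proteases such as ADAM10 release, and it binds CXCR6, a receptor of effector and tissue-resident lymphocytes. In tumours both receptors are known for placing T cells near dendritic cells and macrophages that make the ligands.

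Cxcl9 and Cxcl10 are neighbouring genes on the minus strand of chromosome 5 (GRCm38). Cxcl9 (ENSMUSG00000029417, 4 exons) lies at chr5:92321347-92328079 and Cxcl10 (ENSMUSG00000034855, 4 exons) at chr5:92346638-92348889, with 18558 bases between them. The values below part these 2 genes in several cell classes, so their promoters are shown. Each runs 5′ to 3′ on the minus strand from 250 bases before to 50 bases after the transcription start, from RefSeq (GRCm38.p6), at chr5:92328030-92328329 for Cxcl9 and chr5:92348840-92349139 for Cxcl10. Capitals mark matches to an NF-kB motif (GGGANTTCC) in both and to an interferon-stimulated response element (GAAANNGAAA) in Cxcl10.
Cxcl9: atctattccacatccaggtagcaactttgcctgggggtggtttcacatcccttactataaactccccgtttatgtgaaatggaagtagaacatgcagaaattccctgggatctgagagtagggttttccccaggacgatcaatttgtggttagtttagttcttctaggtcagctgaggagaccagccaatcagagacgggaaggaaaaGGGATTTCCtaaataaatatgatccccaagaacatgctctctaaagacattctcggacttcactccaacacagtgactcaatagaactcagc
Cxcl10: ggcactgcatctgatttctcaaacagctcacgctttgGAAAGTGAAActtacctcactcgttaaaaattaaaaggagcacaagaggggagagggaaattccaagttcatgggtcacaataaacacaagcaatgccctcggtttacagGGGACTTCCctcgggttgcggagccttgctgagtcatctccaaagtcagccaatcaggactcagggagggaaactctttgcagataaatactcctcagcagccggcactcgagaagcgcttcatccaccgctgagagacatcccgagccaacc
The NF-kB match began 42 bases before the start in Cxcl9 and 103 bases before it in Cxcl10, and the GAAAGTGAAA match began 213 bases before the start of Cxcl10. Over 32851 promoters of 300 bases, on both strands, 1.68% held the NF-kB letters and 3.44% the GAAANNGAAA letters. An interferon gamma-activated site (TTCNNNGAA) was held by 8.30% of promoters and by none of the 4 member promoters in the table. The NF-kB letters were chosen after these promoters had been seen, and a match is a description of the letters in this window only. Cxcl16 (ENSMUSG00000018920, 5 exons, chr11:70453983-70459984, minus strand) is named only. Cxcr3 (ENSMUSG00000050232, 2 exons) lies at chrX:101731535-101734269 on the minus strand and Cxcr6 (ENSMUSG00000048521, 2 exons) at chr9:123806475-123811760 on the plus strand.

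The control matrix held 10784 barcodes with 54049661 UMIs, and the IL-27 matrix 10183 barcodes with 43868189 UMIs. After filters on genes, UMIs and mitochondrial share, 10617 control and 9990 IL-27 cells remained, with medians of 2408 and 1870.5 UMIs per cell. In all, 133 barcodes occurred in both matrices. The labels call the cells tumour-infiltrating lymphocytes, but cells with T or NK markers made up 6.50% (6.04 to 6.99) of control and 7.74% (7.22 to 8.28) of IL-27 cells, and neutrophil-like and macrophage-like cells were the 2 largest classes. Levels are UMIs of the gene per 1000000 UMIs of the class (CPM), ratios are IL-27 over control, and intervals are exact at 95%. They cover counting error only: Poisson for levels, conditional binomial for ratios and Clopper-Pearson for shares. With 20 or more UMIs in a class, a gene is called higher or lower there when the 2 levels differ 1.5-fold or more, which is a rule of size and not a test. The share of all genes that pass the same rule is given beside the count of members, first for higher and then for lower. Cells were put into 12 compared classes by marker UMIs and are called "like" because transcripts alone define them.

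The transcripts of the 3 ligands and 2 receptors lay in different cells. Macrophage-like cells held 49.7% of Cxcl16 UMIs in control and 42.7% in IL-27. T-like cells held 85.5% and 79.1% of Cxcr6 UMIs and 67.5% and 68.5% of Cxcr3 UMIs. Cxcl9 and Cxcl10 were spread over myeloid cells and, in opposite libraries, over cells that are not blood-derived. Fibroblast-like cells held 28.6% of control Cxcl9 UMIs and 3.21% in IL-27, whereas tumour-like cells held 14.35% of control Cxcl10 UMIs and 38.4% in IL-27. These were few cells: the 5 cells with most UMIs held 29.5% and 17.7% of Cxcl9 and 15.3% and 41.4% of Cxcl10, against 1.84% and 2.33% of Cxcl16.

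**Figure D1:**
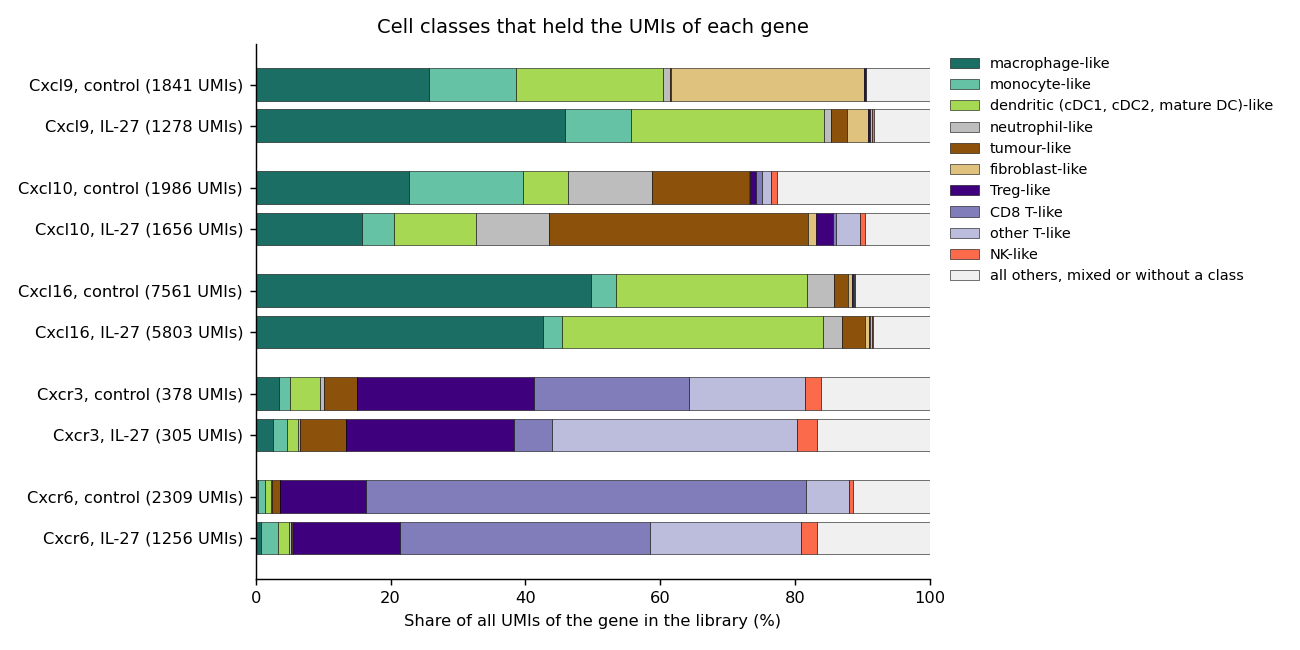
Share of all UMIs of each gene (percent, horizontal axis) held by each cell class in the control and IL-27 libraries. Fibroblast-like cells take 28.6% of Cxcl9 in control and 3.21% in IL-27, tumour-like cells 14.35% and 38.4% of Cxcl10, and CD8 T-like cells 65.2% and 37.1% of Cxcr6.

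Over all cells, none of the 5 genes differed by 1.5-fold between the libraries, beside 7.69% of all genes higher and 6.04% lower. Cxcl9 stood at 34.2 and 29.3 CPM (ratio 0.857, 0.797 to 0.921), Cxcl10 at 36.9 and 38.0 (1.03, 0.964 to 1.10) and Cxcl16 at 140 and 133 (0.947, 0.915 to 0.980). Cxcr3 stood at 7.02 and 6.99 CPM (0.996, 0.854 to 1.16) and Cxcr6 at 42.9 and 28.8 (0.671, 0.626 to 0.719). The Cxcl9 ratio turned to 1.175 (1.087 to 1.271) without fibroblast-like cells. The Cxcl10 ratio was 0.7495 (0.693 to 0.811) without fibroblast-like and tumour-like cells. The pooled values of these 2 ligands thus depended on the fibroblast-like and tumour-like classes, and the classes are described next.

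Cxcl9, the CXCR3 ligand most dependent on interferon gamma, was held by macrophage-like, monocyte-like and dendritic-like cells in both libraries and, in control, by a few fibroblast-like cells at 693 CPM (635 to 754). In control its level was highest in monocyte-like cells (102.6 CPM, 90.0 to 116) among classes of at least 50 cells, and cDC1-like cells (94.3, 82.1 to 108) did not differ from them beyond counting error. C1q macrophage-like cells (74.6, 65.4 to 84.7) and mature dendritic-like cells (66.2, 55.3 to 78.5) came next with overlapping intervals. The cDC2-like (34.9, 26.3 to 45.4) and Dcstamp macrophage-like cells (29.7, 26.0 to 33.8) overlapped as well, and neutrophil-like cells stood at 2.16 CPM. In IL-27 the order was led by C1q macrophage-like cells (130.5 CPM, 116 to 146). Then came cDC2-like (85.1), cDC1-like (79.4) and monocyte-like cells (75.6), whose intervals overlapped, and mature dendritic-like cells were lower, at 27.8 CPM (21.7 to 35.1). C1q macrophage-like cells are macrophages with complement C1q transcripts, and Dcstamp macrophage-like cells carry Dcstamp and Mmp12, a fusion receptor and an elastase.

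**Figure D2:**
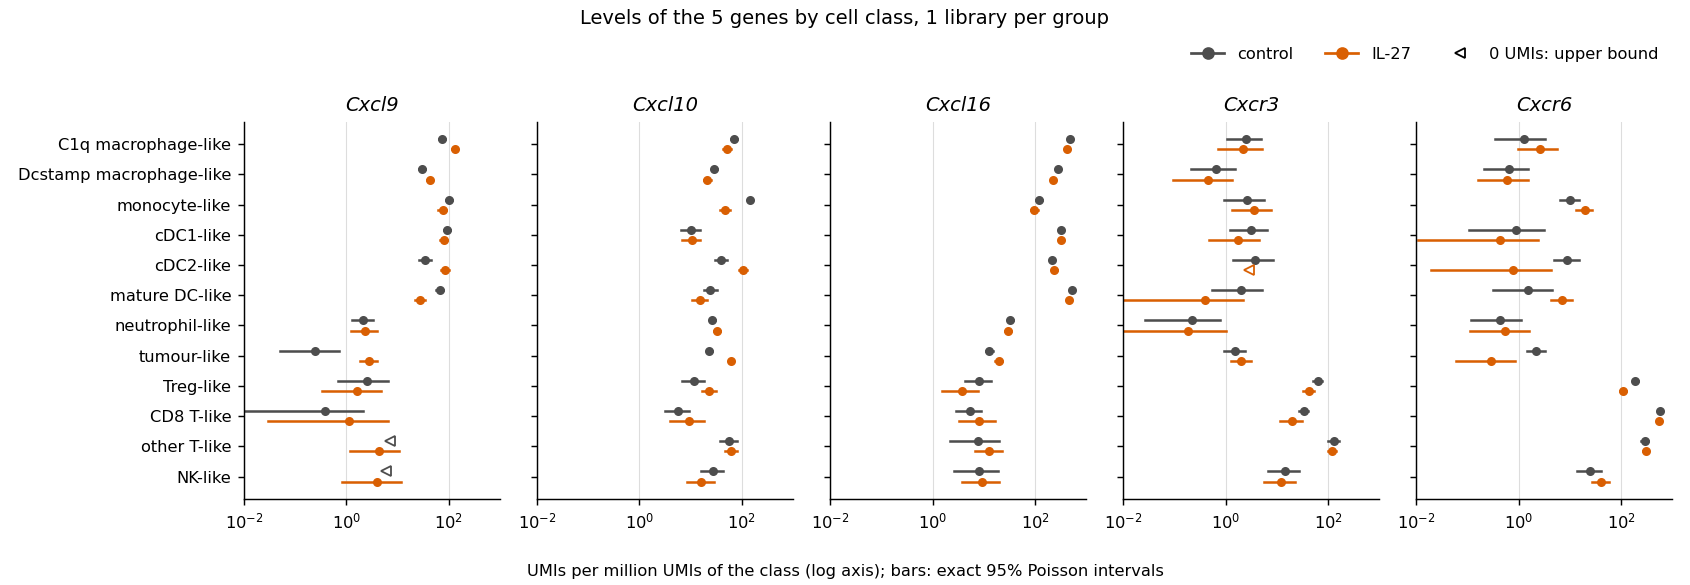
Level of each gene (CPM, log axis) in 12 cell classes of the control (grey) and IL-27 (orange) libraries, with exact 95% Poisson intervals as bars and an open triangle at the upper bound where 0 UMIs were counted. Cxcl9 and Cxcl16 are high in the macrophage-like, monocyte-like and dendritic-like classes and Cxcr3 and Cxcr6 in the T-like classes, and C1q macrophage-like Cxcl9 moves from 74.6 to 130.5.

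In C1q macrophage-like cells Cxcl9 was higher in IL-27, with a ratio of 1.75 (1.47 to 2.08). Of 3 members tested there, 1 was higher and 0 lower, beside 7.06% and 7.03% of genes. Dcstamp macrophage-like cells stood at 29.7 and 42.4 CPM (1.43, 1.195 to 1.70), and 0 of 3 members passed there, beside 5.20% and 8.40% of genes. Taken as 1 class, macrophage-like cells stood at 42.7 and 65.0 CPM (1.52, 1.345 to 1.72), where 1 of 4 members was higher and 0 lower, beside 4.44% and 6.93% of genes. With classes from clusters that ratio was 1.095. The higher level did not come with more cells holding a UMI, before cells were thinned. A Cxcl9 UMI was seen in 146 of 2581 control and 128 of 2737 IL-27 macrophage-like cells. The highest cells held 23 and 69 UMIs, and the median among cells with a UMI was 2.00 in both libraries. With every cell thinned to 1000 UMIs, which left 2079 and 2106 cells, the share with a Cxcl9 UMI was 2.45% (1.83 to 3.21) and 3.18% (2.47 to 4.02), against 0% and 0.319% in T-like cells. Without thinning the shares were 5.66% and 4.68%. The mean over cells, which weighs shallow and deep cells alike, gave a ratio of 1.02 in C1q macrophage-like cells, and leaving out the 3 cells with most UMIs per library gave 1.345.

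Macrophage-like cells with a Cxcl9 UMI had more Ccl5 and Cxcl16 transcripts than those without in both libraries, and they were deeper (medians of 3594 against 2504 UMIs in control and 2630.5 against 2097 in IL-27). Ccl5, a T cell chemokine, was 3.105-fold and 4.43-fold higher and Isg15, an interferon-induced gene chosen after its values were seen, 2.16-fold and 5.06-fold. Cxcl16 was 1.59-fold (1.43 to 1.76) and 1.73-fold higher, so the ligands of both receptors overlapped in these cells. In thinned cells, Cxcl16 was seen in 49.0% (34.8 to 63.4) of Cxcl9-positive and 28.3% of other macrophage-like cells in control, and in 49.3% (36.8 to 61.8) and 23.9% in IL-27. Spp1, which encodes osteopontin, went the other way, at 0.7265-fold (0.679 to 0.776) and 0.311-fold (0.268 to 0.359). By share of thinned cells Spp1 was seen in 21.6% (11.3 to 35.3) against 34.4% in control and 31.3% (20.6 to 43.8) against 34.3% in IL-27, where the intervals overlap. Few cells held both CXCR3 ligands: 3 of 2079 thinned control and 5 of 2106 IL-27 macrophage-like cells had UMIs of Cxcl9 and Cxcl10, where the product of the shares gives 1.62 and 1.11 cells.

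Dendritic classes divided for Cxcl9. In cDC1-like cells, the cross-presenting dendritic cells, the level was 94.3 and 79.4 CPM (0.843, 0.688 to 1.03) and 0 of 3 members passed 1.5-fold, beside 10.1% and 8.37% of genes. In cDC2-like cells Cxcl9 went from 55 UMIs in 11 cells to 112 UMIs in 13 cells (2.44, 1.75 to 3.43), and 2 of 3 members were higher and 0 lower, beside 9.51% and 11.6% of genes. In mature dendritic-like cells, which carry Ccr7 and Fscn1, it was lower (0.420, 0.310 to 0.565), and of 4 members 1 was higher and 2 lower, beside 11.1% and 10.3% of genes. That value rested on 9 control cells, of which the highest held 61, 41 and 16 of 131 UMIs, and 11 IL-27 cells with 71 UMIs. Without the 3 highest cells per library the ratio was 0.988, and as a mean over cells it was 1.55, so no direction held for this class. The cDC2-like ratio was 5.45 under a stricter gate and 0.9395 where classes came from clusters instead of marker UMIs.

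Monocyte-like cells, with Ly6c2 and Ccr2, had 239 and 126 Cxcl9 UMIs (102.6 and 75.6 CPM, 0.737, 0.589 to 0.918). A single IL-27 cell held 58 of the 126 UMIs. The ratio was 0.364 without the 3 highest cells per library and 0.312 without the cells of highest doublet score. Fibroblast-like cells were too few for a comparison, at 43 and 70 cells. In control 8 of them held 527 Cxcl9 UMIs, with 191, 141, 77, 73, 31 and 9 in the 6 highest, and in IL-27 7 held 41 UMIs, with 13, 12 and 8 in the 3 highest. The summed level of the C1q macrophage markers in these fibroblast-like cells was 136.7 and 68.2 CPM, against 8093 and 8464 in C1q macrophage-like cells. Tumour-like cells had 3 and 29 Cxcl9 UMIs (11.4, 3.54 to 58.6), and 1 IL-27 cell held 22 of them.

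Cxcl10, which type I as well as type II interferon can induce, had its highest control level in monocyte-like cells, and among the classes compared it differed most there. The control level was 144 CPM (129 to 160.5) and the IL-27 level 47.4 (37.5 to 59.1), which gives a ratio of 0.329 (0.254 to 0.421). These were 336 UMIs in 52 of 385 cells and 79 UMIs in 26 of 348 cells. The highest control cells held 39, 38 and 34 UMIs and the highest IL-27 cells 12, 10 and 10. Of 4 members tested in monocyte-like cells 1, Cxcr6, was higher and 1, Cxcl10, lower, beside 9.97% and 10.5% of genes. Under the 7 other settings that could be run the Cxcl10 ratio lay between 0.265 and 0.615, the last with cells thinned to 1000 UMIs.

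In macrophage-like cells Cxcl10 stood at 40.8 and 28.9 CPM (0.709, 0.606 to 0.828), opposite in direction to Cxcl9 in the same cells. Both subclasses showed it: 69.3 and 51.4 CPM in C1q (0.742, 0.589 to 0.931) and 29.2 and 21.2 CPM in Dcstamp macrophage-like cells (0.726, 0.584 to 0.899). None of these passed 1.5-fold, and the C1q ratio was 1.056 in thinned cells. The thinned share of macrophage-like cells with a Cxcl10 UMI was 3.175% (2.46 to 4.02) in control and 1.66% (1.16 to 2.30) in IL-27 (unthinned 5.35% and 3.07%). In T-like cells it was 1.35% and 2.23%, so the IL-27 share in macrophage-like cells was not above that of T-like cells. The neutrophil-like shares were 1.17% (0.840 to 1.595) and 0.863% (0.542 to 1.30).

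Interferon-response transcripts were lower in IL-27 both in classes where the counted Cxcl10 ratio was below 1 and in classes where it was above 1. The summed level of Rsad2, Isg15, Ifit1 and Ifit3 was 1106 CPM in control and 460 CPM in IL-27 monocyte-like cells, 388 and 147 in macrophage-like cells, and 274 and 114 in mature dendritic-like cells. It was also lower, at 2224 and 1535 CPM in neutrophil-like and 356.5 and 137 CPM in cDC2-like cells, where the counted Cxcl10 level was higher. The Cxcl10 direction was not settled in either class. Over the other settings the Cxcl10 ratio ran from 0.7046 to 1.505 in neutrophil-like and from 0.1760 to 2.658 in cDC2-like cells. In the latter, 1 IL-27 cell held 123 of 138 Cxcl10 UMIs. Cells with at least 50 UMIs of these 4 genes per 10000 UMIs numbered 29 of 385 control and 16 of 348 IL-27 monocyte-like cells. In those cells Cxcl10 stood at 1214 CPM (1010 to 1448) in control and 294 CPM (147 to 527) in IL-27. The other bins stood at 191 and 104 CPM with 10 to 50 marker UMIs, where the intervals overlap, and at 64.1 (52.6 to 77.4) and 37.4 CPM (28.3 to 48.5) with under 10. In the top bin, with most interferon-response transcripts, C1q macrophage-like cells stood at 1218 CPM (944 to 1547) in 26 control cells. In 11 IL-27 cells the level was 1980 CPM (1438 to 2658), and these intervals overlap. The Dcstamp macrophage-like top bin was lower in IL-27, at 1370 (1141 to 1633) and 366 CPM (134 to 797), from 125 and 6 UMIs. With under 10 marker UMIs, Dcstamp macrophage-like cells were higher in IL-27, at 9.07 and 19.7 CPM, and the intervals do not overlap. With 10 to 50 they stood at 66.7 and 55.25 CPM, with overlapping intervals. The part of the interferon-response state in the Cxcl10 differences was not tested.

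**Figure D3:**
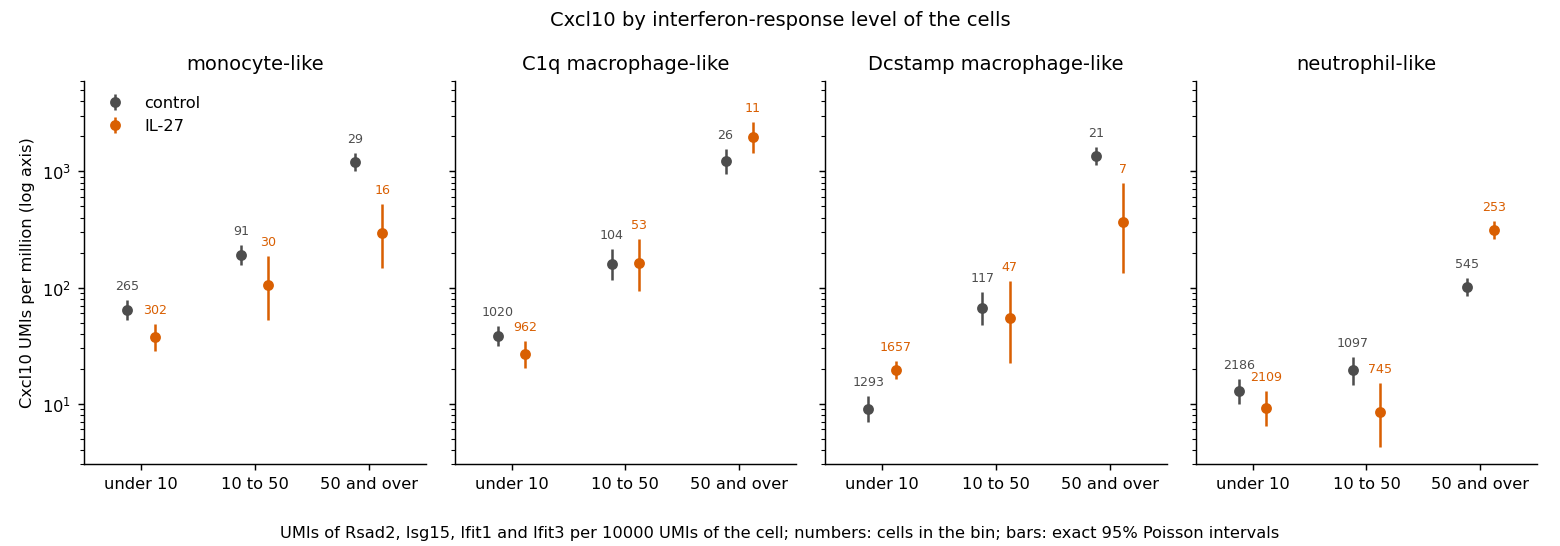
Cxcl10 level (CPM, log axis) in cells binned by UMIs of 4 interferon-response genes per 10000 UMIs of the cell, for 4 classes and both libraries, with exact 95% Poisson intervals and the number of cells beside each point. Monocyte-like cells are lower in IL-27 in each bin, with 1214 and 294 CPM in the top bin, whereas neutrophil-like cells reach 101 and 315.5 CPM there. In the other bins neutrophil-like cells are lower in IL-27, at 19.3 and 8.42 CPM and at 12.8 and 9.28 CPM, with overlapping intervals.

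Neutrophil-like cells were the largest class and held 12.4% and 10.9% of Cxcl10 UMIs. Their level was 26.7 and 32.7 CPM (1.23, 1.006 to 1.49), and 0 of 3 members passed 1.5-fold, beside 12.2% and 9.71% of genes. It came from 90 of 3828 control and 35 of 3107 IL-27 cells, so fewer cells held more UMIs each. Of these UMIs, 51.0% and 74.4% lay in the 14.2% and 8.14% of cells with most interferon-response transcripts. Rsad2, an antiviral gene chosen after its values were seen, was 4.82-fold and 10.4-fold higher in neutrophil-like cells with a Cxcl10 UMI than in those without, and Irf1, a transcription factor of the interferon response, 2.13-fold and 3.34-fold. Without the 3 highest cells per library the class ratio was 0.938, so its direction was not settled.

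Tumour-like cells, with keratin and Epcam transcripts, had 285 Cxcl10 UMIs in 22 of 294 control cells and 636 UMIs in 39 of 237 IL-27 cells (23.3 and 61.5 CPM, 2.64, 2.29 to 3.05). The control cells with most held 87, 66, 49 and 40 UMIs. In IL-27, 1 cell held 352 and the next 137 and 29. Of 5 members tested 3 were higher and 1 lower, beside 5.22% and 7.19% of genes. The Cxcl10 ratio was 1.70 without the 3 highest cells per library, 6.505 without the cells of highest doublet score and 0.867 in thinned cells, so it had no settled direction. Cxcl16 stood at 12.9 and 19.4 CPM there (1.504, 1.215 to 1.865). Cxcl16 was 2.79-fold and 2.555-fold higher in tumour-like cells with a Cxcl10 UMI. The beads selected for CD45, which tumour cells lack, so these cells are those that passed the enrichment.

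Some Cxcl10 values rested on few cells. In cDC2-like cells 62 and 138 UMIs gave a ratio of 2.67 (1.96 to 3.66), but 1 IL-27 cell held 123 of the 138, and its barcode also occurred in the control matrix. Without barcodes shared between the matrices the ratio was 0.285. In mature dendritic-like cells 48 and 39 UMIs gave 0.630 (0.402 to 0.982), with 30 and 14 UMIs in the highest cell, and with classes from clusters 1.94. Treg-like cells had 18 and 42 Cxcl10 UMIs (2.02, 1.14 to 3.72), but 0.848 with classes from clusters. Other T-like cells stood at 57.1 and 61.9 CPM, from 4 and 17 cells, of which 1 control cell held 23 of 29 UMIs. In cDC1-like cells Cxcl10 stood at 10.1 and 10.4 CPM.

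Cxcl16 was the most evenly held ligand. In control its level was highest in mature dendritic-like cells (536 CPM, 504 to 569) and C1q macrophage-like cells (476, 453 to 501). Then came cDC1-like (325), Dcstamp macrophage-like (285), cDC2-like (214) and monocyte-like cells (120.6), and neutrophil-like cells stood at 33.2 CPM. The order was the same in IL-27 down to cDC1-like cells: 468 CPM in mature dendritic-like, 425.5 in C1q macrophage-like and 317 in cDC1-like cells. No myeloid class differed by 1.5-fold. The ratio was 0.874 in mature dendritic-like, 0.893 (0.824 to 0.969) in C1q macrophage-like and 0.781 (0.731 to 0.834) in Dcstamp macrophage-like cells, and 0.974 and 1.12 in cDC1-like and cDC2-like cells with intervals that hold 1. In monocyte-like cells it was 0.811 (0.665 to 0.987), and 1.23 in thinned cells. Thinned shares of macrophage-like cells with a Cxcl16 UMI were 28.8% (26.9 to 30.8) and 24.7% (22.9 to 26.6), against 0.677% and 0.957% in T-like cells (unthinned 54.8% and 44.1%). Those of mature dendritic-like cells were 38.1% (31.1 to 45.4) and 35.2% (29.7 to 41.1), which overlap. Mature dendritic-like cells held more of all Cxcl16 UMIs in IL-27 (20.6%, against 14.0%) while their level was lower, since there were 351 of them against 240.

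**Figure D4:**
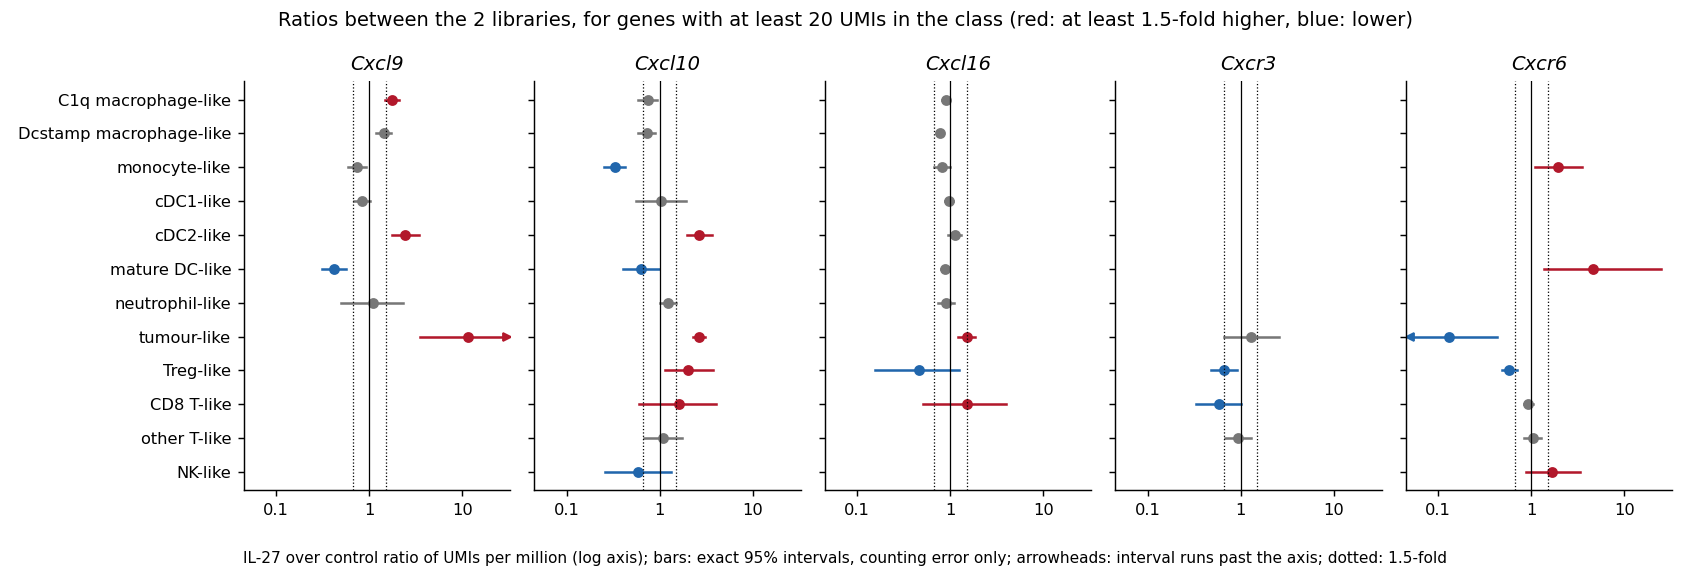
Ratio of IL-27 to control levels (log axis) for genes of 20 or more UMIs in a class, with exact 95% counting intervals, red where at least 1.5-fold higher and blue where lower. Cxcl16 stays within 1.5-fold in each of the 7 myeloid classes, whereas Cxcl10 runs from 0.329 in monocyte-like to 2.67 in cDC2-like cells. The cDC2-like value rests on 1 IL-27 cell with 123 of 138 UMIs, and under other settings it was as low as 0.176.

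Few genes that feed or process the ligands passed 1.5-fold in macrophage-like cells, where 4.44% of all genes were higher and 6.93% lower. Of 11 tested genes of interferon gamma and NF-kB input, none passed 1.5-fold (median log2 ratio 0.06, against -0.00 over all genes). Irf1 stood there at 25.5 and 26.8 CPM, and in C1q macrophage-like cells at 28.1 and 38.5 CPM (1.37, 1.009 to 1.855), where 0 of 11 passed as well (median -0.08, against 0.02). Of 4 tested genes of ligand processing 1 was lower, Dpp4, the protease that trims CXCL9 and CXCL10 (5.61 and 3.11 CPM), while Adam10 (49.8 and 60.0) and Adam17 (85.8 and 88.7) stayed within 1.5-fold. Of 13 other chemokines tested 1 was lower, Cxcl1, a neutrophil attractant (570 and 368 CPM, 0.645).

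In monocyte-like and mature dendritic-like cells other chemokines were lower as well. Of all genes, 10.5% were lower and 9.97% higher in monocyte-like cells. In mature dendritic-like cells 10.3% were lower and 11.1% higher. Of 13 tested in monocyte-like cells, 7 were lower and 0 higher (median -0.64, against 0.00 over all genes): Ccl2, Ccl4, Ccl5, Ccl12, Ccl17, Ccl22 and Cxcl1. Ccl22 rested on 22 and 8 UMIs, with an interval (0.196 to 1.19) that holds 1. Ccl5 stood at 295 and 145 CPM (0.4905, 0.422 to 0.569) and Cxcl1 at 445 and 170 (0.383, 0.335 to 0.4375). Of the 11 input genes tested there 1 was lower, Tnf (617 and 313 CPM, 0.508), which encodes a cytokine that signals to NF-kB. In mature dendritic-like cells 7 of 13 chemokines were lower and 0 higher (median -0.73, against 0.01), among them Ccl3 (225 and 23.1 CPM, 0.103) and Ccl17, a CCR4 ligand (2873 and 1737 CPM, 0.6045), while Ccl22 stood at 1945 and 2597. Of the 7 niche partners of Cxcl16, which are IL-15 and costimulation genes, 1 was lower there: Il12b, a subunit of interleukin 12 (241 and 80.7 CPM, 0.334, 0.2825 to 0.394). Il15 (18.2 and 21.2) and its presenting receptor Il15ra (68.7 and 90.9) stayed within 1.5-fold. Summed Dcstamp macrophage markers in mature dendritic-like cells also differed, at 709 and 390 CPM, and their part in these chemokine values was not tested.

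Cxcr3, the receptor of CXCL9 and CXCL10, was held by T-like cells with different makeup in the 2 libraries. Other T-like cells had the highest level (127.9 CPM, 98.7 to 163, and 118.4, 97.4 to 143). They pass the T gate but were not put into the CD8, Treg or gamma-delta class. They were not free of Treg markers. The median Treg marker level, scaled to the UMIs of the cell, was 4.93 and 4.28 there, against 38.5 and 43.8 in Treg-like cells. Whether the class holds Treg cells was not tested. Treg-like cells, with Foxp3 and Il2ra, stood at 62.6 and 41.5 CPM (50.8 to 76.2 and 32.7 to 52.0). CD8 T-like cells stood at 33.1 and 19.5 CPM (26.5 to 40.8 and 11.4 to 31.3) and NK-like cells at 14.5 and 12.1 CPM, from 9 UMIs each. Plasmacytoid dendritic-like cells, another known carrier of CXCR3, had 8 and 7 UMIs in 23 and 27 cells (39.6 and 27.7 CPM). In neutrophil-like cells, which should lack the receptor, 2 and 1 UMIs were seen.

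In Treg-like cells Cxcr3 had 99 UMIs in 50 of 203 control cells and 76 UMIs in 39 of 287 IL-27 cells, a ratio of 0.664 (0.486 to 0.904). Of 4 members tested 1 was higher there, Cxcl10, and 3 lower, Cxcr3, Cxcr6 and Cxcl16 (from 13 and 7 UMIs), beside 10.6% and 10.5% of genes. In CD8 T-like cells there were 87 and 17 UMIs in 40 and 10 cells, a ratio of 0.591 (0.329 to 1.001). With classes from clusters the ratio was 0.175. Of 4 members tested there 2 were higher, Cxcl10 (15 and 8 UMIs) and Cxcl16 (14 and 7 UMIs), and 1 lower, beside 11.6% and 14.0% of genes. Other T-like cells gave 0.926 (0.675 to 1.28) and 0 of 3 members passed, beside 13.6% and 12.3% of genes. Thinned shares were 6.44% (3.47 to 10.75) and 3.87% (1.95 to 6.82) in Treg-like, 4.30% and 3.03% in CD8 T-like, and 6.45% and 9.57% in other T-like cells, with overlapping intervals in each. The neutrophil-like thinned shares were 0.0293% and 0%. At this depth a difference in the share of cells with Cxcr3 was not detectable. CD8 T-like cells held 23.0% of control and 5.57% of IL-27 Cxcr3 UMIs and other T-like cells 17.2% and 36.4%, and the classes themselves went from 258 to 101 and from 135 to 240 cells.

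Tbx21 encodes T-bet, a transcription factor known to drive Cxcr3, and was read beside it. Tbx21 was at 15.8 and 8.74 CPM in Treg-like (0.553, 0.276 to 1.08), 84.0 and 27.6 in CD8 T-like (0.328, 0.206 to 0.501) and 31.5 and 12.8 in other T-like cells (0.4065, 0.1755 to 0.916). In other T-like cells the Cxcr3 ratio was 0.926 (0.675 to 1.28). In NK-like cells Tbx21 was lower too (0.509, 0.359 to 0.7175), with 9 and 9 Cxcr3 UMIs. A link between Tbx21 and Cxcr3 was not tested. Not all lymphocyte regulators went with Tbx21. In CD8 T-like cells 1 of 8, Tbx21, was lower and 3 were higher, namely Il12rb2 and Il18r1, the receptors of interleukins 12 and 18, and Prdm1, which encodes Blimp-1, and the list median was 0.40 against -0.03 over all genes. Of all genes 11.6% were higher and 14.0% lower there. Il18r1 reached 32.7 and 94.3 CPM (2.88, 2.10 to 3.95). In Treg-like cells 2 of 7 were lower, Tbx21 and Il12rb2, and 0 higher (median 0.06, against 0.01), beside 10.5% of all genes lower and 10.6% higher. Of the genes of receptor signalling and adhesion, 0 of 17 passed in Treg-like cells (median 0.02). In CD8 T-like cells 2 of 17 were higher (median -0.05), Rgs2, a regulator of G protein signalling, and the integrin gene Itgb1. That count is near the share over all genes higher in this class, 11.6%.

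Cxcr6, the CXCL16 receptor, was above all a gene of CD8 T-like cells. Its level there was 573 CPM (544 to 602) in control and 536 (488 to 587) in IL-27, and the ratio 0.936 (0.842 to 1.04). A UMI was seen in 228 of 258 and 77 of 101 cells, and thinned shares were 43.4% (37.2 to 49.7) and 34.3% (25.1 to 44.6), which overlap. Gamma-delta T-like cells, only 9 and 14, stood at 469 and 559 CPM. Other T-like cells came next at 289 and 300 CPM (1.04, 0.846 to 1.27), with thinned shares of 22.6% and 21.7%. The level per class thus stayed close in these classes, and over all T-like cells it went from 414 to 267 CPM with fewer CD8 T-like cells among them.

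Treg-like cells were the T class with a lower Cxcr6 level. They had 297 UMIs in 83 of 203 control cells and 200 UMIs in 88 of 287 IL-27 cells, or levels of 188 (167 to 210) and 109 CPM (94.6 to 125.5). The ratio was 0.582 (0.484 to 0.699). No cell dominated: the highest held 13 and 8 UMIs. Thinned shares were 16.8% (11.95 to 22.7) and 9.51% (6.36 to 13.5), and the neutrophil-like share was 0% and 0.0785%. The ratio lay between 0.469 and 0.782 under the 8 other settings. Summed C1q macrophage markers in Treg-like cells were 87.8 and 24.6 CPM, interferon-response genes 303 and 106 CPM, and the T markers 3292 and 3039 CPM. Their part in the Cxcr6 value was not tested. Of 9 other chemokine and egress receptors tested in Treg-like cells 1 was lower, Ccr8, a receptor of tumour Tregs (444 and 218 CPM, 0.491, 0.4335 to 0.5565), and 0 were higher (median 0.17). Of all genes 10.5% were lower and 10.6% higher there, so the count of lower receptors is near that share. Among the lymphocyte state genes, Itgae, which encodes the integrin CD103, was higher in Treg-like cells (2.23-fold, 1.785 to 2.81) and Havcr2, which encodes the inhibitory receptor TIM-3, lower (0.633, 0.496 to 0.8055).

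NK-like cells had 15 and 30 Cxcr6 UMIs (24.1 and 40.4 CPM, 1.67, 0.872 to 3.35), and of 2 members tested there 1 was higher and 1, Cxcl10, lower, beside 11.7% and 14.2% of genes. The interval holds 1, and the value was 0.843 under a stricter gate and 6.25 without the 3 highest cells per library. Myeloid and tumour classes held small counts: 23 and 32 UMIs in monocyte-like cells (1.945, 1.10 to 3.48), 3 and 18 in mature dendritic-like cells (4.65, 1.36 to 24.7) and 27 and 3 in tumour-like cells (0.131, 0.0255 to 0.427). The T markers summed to 116 and 87.6 CPM in the monocyte-like and 56.1 and 77.2 CPM in the mature dendritic-like cells, against 3292 and 3039 CPM in Treg-like cells, and their part was not tested.

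The 2 receptors were seldom seen in the same thinned cell. In thinned control CD8 T-like cells 8 had only Cxcr3, 108 only Cxcr6 and 3 both, of 256 cells, where the product of the shares gives 4.77 cells. In control Treg-like cells these were 12, 33 and 1 of 202 (product 2.19), and in IL-27 other T-like cells 18, 46 and 4 of 230 (product 4.78). Counts this small do not show a departure from the product.

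By level, however, CD8 T-like cells with and without a Cxcr6 UMI differed in the genes that separate effector from naive or memory-like cells. In control 228 cells had a UMI and 30 had none (medians of 8726.5 and 4355 UMIs), in IL-27 77 and 24 (8956 and 2758.5). Cxcr3 was lower in cells with Cxcr6, at 27.1 against 153 CPM in control (0.177, 0.105 to 0.312) and 12.5 against 101 CPM in IL-27 (0.124, 0.0427 to 0.385). Tcf7 and Lef1, factors of naive and stem-like T cells, were lower too (0.0990 and 0.258 in control, 0.183 and 0.196 in IL-27), as was S1pr1, the receptor for tissue egress (0.113 and 0.0290). Gzmb, which encodes granzyme B, was 2.155-fold and 7.09-fold higher, and the inhibitory receptor genes Pdcd1 (1.81 and 1.85) and Lag3 (1.85 and 1.775) were higher. The cells without a Cxcr6 UMI were shallower, and Cd3e, a T cell receptor subunit chosen after its values were seen, was 1.23-fold and 1.47-fold higher in those with one. In Treg-like cells Cxcr6-positive cells also had more Lag3 (2.45-fold and 2.08-fold) and Gzmb (2.39-fold and 1.475-fold).

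**Figure D5:**
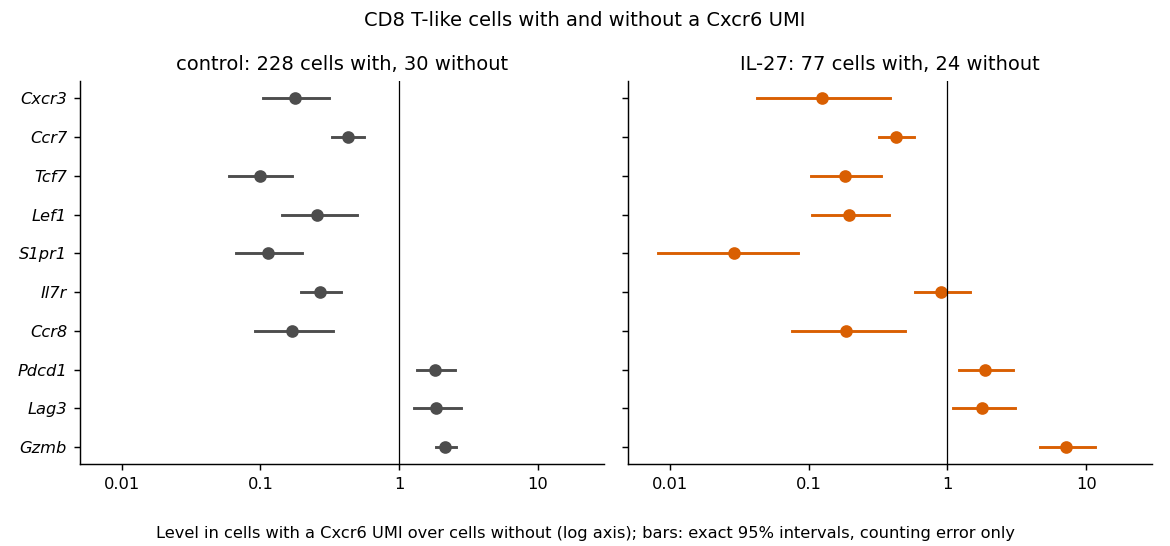
Level of 10 genes in CD8 T-like cells with a Cxcr6 UMI over those without (log axis), in the control (left, 228 and 30 cells) and IL-27 (right, 77 and 24 cells) libraries, with exact 95% intervals for counting error. Cxcr3, Tcf7, Lef1 and S1pr1 lie below 1 and Pdcd1, Lag3 and Gzmb above 1 in both.

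Cells with Cxcr3 showed the reverse in several genes. In Treg-like cells Cxcr6 was lower where Cxcr3 was seen (0.480, 0.352 to 0.646, and 0.441, 0.269 to 0.688), as were Cd44, an activation marker (0.562 and 0.505), and the regulator Bhlhe40 (0.626 and 0.362). In other T-like cells of IL-27, the 66 with Cxcr3 had more Tcf7 (2.02-fold), Lef1 (3.32-fold) and S1pr1 (2.24-fold) and less Pdcd1 (0.351-fold) than the 174 without. In the 31 control cells with Cxcr3, Tcf7 (0.753, 0.463 to 1.18) and Lef1 (0.860, 0.531 to 1.35) did not differ beyond counting error from the 104 without.

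CD8 T-like cells were grouped by their leading T cell receptor beta segment, and both chemokine receptors were described within the groups. The segments Trbv16 and Trbv4 were chosen after their values were seen, and cells that share a segment need not be 1 clone. Cells led by Trbv16 made up 33.3% of control (86 cells) and 6.93% of IL-27 CD8 T-like cells (7 cells), and those led by Trbv4 15.9% (41 cells) and 45.5% (46 cells). Those led by any other segment made up 46.9% and 27.7%, and no segment was seen in 3.88% (10 cells) and 19.8% (20 cells). Control Trbv16 cells had 2 Cxcr3 UMIs (1.92 CPM) and Cxcr6 at 581 CPM (536 to 629). IL-27 Trbv4 cells likewise had 2 Cxcr3 UMIs (4.11 CPM) and Cxcr6 at 657 CPM (587 to 733). Cells of all other segments, 121 and 28, held most Cxcr3, 74 and 10 UMIs (69.0 CPM, 54.2 to 86.6, and 37.7 CPM, 18.1 to 69.3), with Cxcr6 at 523 and 354 CPM. Control Trbv4 cells had 10 Cxcr3 UMIs in 3 cells (20.4 CPM) and Cxcr6 at 680 CPM. The 7 IL-27 Trbv16 cells had 4 Cxcr3 UMIs, all in 1 cell (68.9 CPM, 18.8 to 176), and Cxcr6 at 431 CPM (279 to 636). Cxcr3 was thus lower than in the other segments in 3 of the 4 pairs of leading segment and library and not in the IL-27 Trbv16 cells. In CD8 T-like cells of IL-27, 5 of 11 lymphocyte state genes were higher (Tcf7, Lef1, Il7r, Itgae and Cd44) and 1 lower (Tox), with a median of 0.42 against -0.03. Itgae rested on 12 and 8 UMIs, with an interval (0.715 to 5.36) that holds 1. Of all genes 11.6% were higher and 14.0% lower there.

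Across the 12 classes of both libraries, 24 points that share libraries and class totals, the pattern of each gene was compared with 10883 genes on the log2(CPM + 10) scale, as a description. Cxcr6 was most like Cd3g (Pearson r = 0.984), Prkcz (0.982) and Zap70 (0.969), and Cxcr3 most like Sit1 (0.961), Cd28 (0.960) and Tnfrsf25 (0.960). Cxcl16 was most like Zfp516 (0.953), Ifi30 (0.940) and Cds1 (0.940), and Cxcl9 most like Pld4 (0.960), Cds1 (0.952) and Tbc1d9 (0.952). Cxcl10 had no close match, with Id3 (0.686), Camkk2 (0.677) and Phf11d (0.675) nearest. Among the members, Cxcl9 was near Cxcl16 (0.900) and Cxcr3 near Cxcr6 (0.885), but Cxcl9 and Cxcl10, neighbours in the genome and ligands of 1 receptor, had an r of 0.329. Some Cxcl10 points rested largely on 1 cell, with 123 of 138 UMIs in IL-27 cDC2-like and 352 of 636 in IL-27 tumour-like cells. The part of such cells in the Cxcl10 correlations was not tested.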

How the data were processed

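Single-cell 5' libraries (Chromium, v2 chemistry, NovaSeq) were deposited by the authors as 2 matrices of raw UMI counts per gene and cell barcode, control and IL-27, and per the file headers Cell Ranger 4.0.0 made them. The submitters' processing notes name mm10 and Seurat 3.2.0. A cell was kept if it had 200 or more genes, 500 or more UMIs and a share below 10% of its UMIs in 13 mitochondrial genes, which removed 167 control and 193 IL-27 barcodes. The 5 genes, the 8 pathway lists and the marker sets were chosen with earlier results of these data known, and the lists support nothing as independent evidence.

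Classes were set per cell by UMIs of marker sets relative to a reference level, where the reference levels and the rule for mixed cells were chosen after seeing the data. As the treatment of doublets, 257 control and 267 IL-27 cells were set aside as mixed, and 1871 and 1676 cells stayed unclassed. Mixed cells passed gates of 2 lineages among neutrophil, macrophage, lymphoid, dendritic, tumour, fibroblast and mast, or were T-like with both Foxp3 and CD8 UMIs. Pairs of dendritic with macrophage or lymphoid gates were allowed. Monocyte, plasmacytoid dendritic, B, plasma and endothelial gates did not count. Cells with such pairs therefore stayed in their class. Counts were summed per library and class, and Ccl19 was left out because 2 rows carry its symbol. Shares of cells were computed after thinning each cell to 1000 UMIs, which left out shallower cells (502 control and 631 IL-27 macrophage-like cells, 420 and 559 neutrophil-like cells, 14 and 15 T-like cells). With 1 matrix per group there was no test, p-value or model. Genes named are the 5 genes, the list genes, Spp1 and the 3 genes most like each of the 5 in pattern, with exceptions marked where they occur.

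Alternatives were a stricter gate (2 times the reference), Leiden clusters (scanpy 1.11.5, resolution 2.0, 39 clusters) in place of gates, no mitochondrial limit, leaving out the 8% of cells with the highest Scrublet score, thinning, a mean over cells, leaving out the 3 cells with most UMIs, and leaving out shared barcodes. Python 3.11.15 with numpy 2.4.6, pandas 2.3.3 and scipy 1.17.1 was used, and the interval script was tested on simulated data. UMIs are counted molecules, but the intervals cover counting error only and not differences between mice.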

Additional observations from a re-analysis of the deposited data

Results flagged for a closer look

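Within 3 genes, classes lay past 1.5-fold in opposite directions between the libraries, with counting intervals that leave out 1, as counted with the marker gates. Classes past 1.5-fold whose intervals hold 1 are not listed below. Among these is Cxcl16 in Treg-like cells (0.4655, 0.1573 to 1.255), opposite to Cxcl16 in tumour-like cells (1.504). The difference between classes was not tested, and several of the directions turned under other settings. The ratios below are IL-27 over control.

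Cxcl9 was higher in C1q macrophage-like (1.749), cDC2-like (2.440) and tumour-like cells (11.43) and lower in mature dendritic-like cells (0.4204). Over the other settings the cDC2-like value ran from 0.9395 to 5.450, the mature dendritic-like value from 0.1840 to 1.573 and the C1q value from 1.024 to 2.092, so the first 2 held no direction. The tumour-like value rests on 3 and 29 UMIs.

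Cxcl10 was higher in cDC2-like (2.666), tumour-like (2.639) and Treg-like cells (2.017) and lower in monocyte-like (0.3287) and mature dendritic-like cells (0.6302). Over the other settings 4 of these 5 turned direction, with the cDC2-like value as low as 0.1760, the tumour-like 0.8671 and the Treg-like 0.8483, and the mature dendritic-like as high as 1.941. The monocyte-like value ran from 0.2649 to 0.6148.

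Cxcr6 was higher in monocyte-like (1.945) and mature dendritic-like cells (4.654) and lower in tumour-like (0.1314) and Treg-like cells (0.5822). Among these the Treg-like value has the most counts, 297 and 200 UMIs, and the mature dendritic-like value has 3 and 18.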

How the results depend on the processing

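No paired analysis was possible because each group is 1 matrix and no map ties barcodes to the labelled entries. For the same reason no replicate could be left out. Of the values for results named in advance, 84 stayed within their counting interval of the reported ratio, 15 moved out of it and 8 were counted as turned. Of the others these were 151, 31 and 10. The turned counts leave out some values that crossed 1. Cxcr6 in CD8 T-like cells stayed on its side of 1 in 6 of 8 settings and reached 1.008, inside its counting interval (0.842 to 1.04). Cxcl10 in neutrophil-like cells stayed on its side in 4 of 8. The cause was not tested in any case. Kept in direction under all 8 other settings were, in macrophage-like cells, Cxcl9 (1.095 to 1.688), Cxcl10 (0.607 to 0.816) and Cxcl16 (0.797 to 0.853), with Cxcl9 in the C1q (1.024 to 2.092) and Cxcl10 (0.533 to 0.802) and Cxcl16 (0.762 to 0.829) in the Dcstamp subclass. So were Cxcl16 in mature dendritic-like (0.790 to 0.890), Cxcr3 in Treg-like (0.593 to 0.778) and CD8 T-like (0.175 to 0.6465) and Cxcr6 in Treg-like cells (0.469 to 0.782). In monocyte-like cells 7 settings gave a value, since no cluster was monocyte-like, and Cxcl9 (0.312 to 0.744), Cxcl10 (0.265 to 0.615) and Cxcr6 (1.396 to 3.05) kept direction under them. For Cxcl9 in tumour-like cells and Cxcr6 in mature dendritic-like and tumour-like cells, only 6 of the 8 settings gave a value, and direction held in those. These counts are small, at 3 and 29, 3 and 18, and 27 and 3 UMIs. In control 3 cells held all UMIs of Cxcl9 in tumour-like and of Cxcr6 in mature dendritic-like cells. The settings without a value cannot show whether direction holds. Cxcr3 has 378 and 305 UMIs in all, which limits what its shares of cells can show.

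With classes from clusters, the ratios were 1.095 for Cxcl9 in macrophage-like, 1.573 for Cxcl9 in mature dendritic-like, 0.9395 for Cxcl9 in cDC2-like, 0.7046 for Cxcl10 in neutrophil-like, 1.941 for Cxcl10 in mature dendritic-like, 0.8483 for Cxcl10 in Treg-like, 0.7903 for Cxcl16 in mature dendritic-like, 0.1746 for Cxcr3 in CD8 T-like and 0.7818 for Cxcr6 in Treg-like cells. Under the stricter gate they were 0.1840 for Cxcl9 in mature dendritic-like, 0.9758 for Cxcl10 in neutrophil-like, 0.2955 for Cxcl10 in cDC2-like and 0.8434 for Cxcr6 in NK-like cells. In thinned cells they were 0.8134 for Cxcl9 in mature dendritic-like, 0.8671 for Cxcl10 in tumour-like, 1.056 for Cxcl10 in C1q macrophage-like, 1.233 for Cxcl16 in monocyte-like, and for Cxcr6 0.4691 in Treg-like, 0.8062 in CD8 T-like and 0.6641 in NK-like cells.

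As a mean over cells the ratios were 1.143 for Cxcl9 in macrophage-like, 1.546 for Cxcl9 in mature dendritic-like, 0.9737 for Cxcl10 in neutrophil-like, 1.173 for Cxcl10 in mature dendritic-like and 0.8529 for Cxcl16 in macrophage-like cells. Without the 3 cells with most UMIs they were 0.9882 for Cxcl9 in mature dendritic-like, 0.9382 for Cxcl10 in neutrophil-like, 0.1760 for Cxcl10 in cDC2-like and 6.252 for Cxcr6 in NK-like cells. Without the highest doublet scores Cxcl10 in neutrophil-like cells stood at 1.505, and without shared barcodes Cxcl10 in cDC2-like cells at 0.2854. Over all cells Cxcl9 stood at 1.175 without fibroblast-like and at 1.170 without fibroblast-like and tumour-like cells.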
